A study of Mus musculus with 4 samples.

Results

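Genes that encode bone morphogenetic proteins (BMPs) and growth and differentiation factors (GDFs) were followed in skeletal stem/progenitor cells of the mouse skull and tibia. The 10 genes were *Bmp2*, *Bmp3*, *Bmp4*, *Bmp5*, *Bmp6*, *Bmp7*, *Bmp8a*, *Gdf5*, *Gdf6*, and *Gdf10*, chosen by symbol from the 23946 gene symbols listed in each library. RNA came from CD51+;CD200+ cells of wild-type CD-1 mice at postnatal day 3, with 1 library from each of 3 cranial sutures, sagittal (SAG), coronal (COR), and posterior frontal (PF), and 1 from the growth plate (GP) of the tibia. The cells of many mice were pooled and sorted by FACS for CD51 and CD200, and against CD45, Ter119, Tie2, Thy1, 6C3, and CD105. The suture pieces held bone fronts, mesenchyme, dura mater, and periosteum. The PF suture fuses in early life and the SAG and COR sutures stay patent, so the study set PF against the other sutures, with GP as its control.

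BMPs and GDFs are secreted dimers of the TGF-β superfamily. They are made as precursors and cut by proprotein convertases. Pairs of type I and type II serine/threonine kinase receptors bind them and, for many but not all of these ligands, phosphorylate SMAD1, SMAD5, and SMAD9. These enter the nucleus with SMAD4 and raise genes such as the *Id* and *Msx* genes, while extracellular antagonists such as noggin and chordin hold the ligands away from their receptors. In the skeleton the ligands are known for starting cartilage and bone formation, and a few members, such as BMP3, oppose it. By sequence they fall into related groups: BMP2 with BMP4, BMP5 with BMP6, BMP7, and BMP8A, BMP3 with GDF10, and GDF5 with GDF6.

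Values are FPKM, fragments of cDNA scaled to transcript length and to the size of the library, so levels of different genes can be set side by side. Each tissue was sequenced as a single library, so no spread between replicates is known and differences between tissues were not tested. Total FPKM was between 447174 and 550958 per library. The number of fragments was not given, but low values rise in steps of 1 fragment once multiplied by transcript length, and by these steps PF was the shallowest library, with 43.7% of the fragments of SAG, compared with 88.0% in COR and 83.9% in GP. Fragment numbers below are estimates from these steps. *Cd200* was between 23.5 and 62.6 FPKM and *Itgav*, the gene of CD51, between 6.20 and 15.0 FPKM, while *Ptprc*, the gene of CD45, reached 0.568 FPKM at most. *Enpep*, the gene of 6C3, was at 1.39 to 7.05 FPKM although 6C3 was sorted as negative. The SAG library stood apart by *Ttr*, a gene of the choroid plexus, at 5103 FPKM compared with 9.74 to 465 in the others. In sorted cells pooled as RNA, a lower level may be fewer cells of a type or less RNA per cell, which cannot be told apart.

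The ligand genes differed widely among the tissues. Their summed level was highest in SAG-CD51+;CD200+ cells, 351.2 FPKM, followed by 248.8 in PF, 145.2 in COR, and 138.4 in GP. *Gdf10* alone made up 69.6% of the sum in PF, 35.8% in SAG, and 40.1% in COR, but 8.15% in GP, where *Bmp5* and *Bmp2* were the largest with 21.2% and 20.7%. Without *Gdf10*, PF had the lowest sum of the 4 libraries, 75.8 FPKM, below COR with 86.9, GP with 127.1, and SAG with 225.5. PF was the lowest library for 6 of the 10 genes, *Bmp2*, *Bmp3*, *Bmp5*, *Bmp6*, *Bmp8a*, and *Gdf5*, and the highest for *Gdf10* only. Among all genes that reached 1 FPKM somewhere, 35.8% were at or tied for their lowest value in PF and 35.2% at or tied for their highest. SAG was the highest library for *Bmp2*, *Bmp4*, *Bmp7*, and *Gdf5*, COR for *Bmp3*, *Bmp8a*, and *Gdf6*, and GP for *Bmp5* and *Bmp6*. This is 4, 3, and 2 of the 10 genes, beside 28.4%, 19.9%, and 16.4% of the genes that reached 1 FPKM somewhere. *Gdf6* did not reach 1 FPKM in any library, and *Bmp3* was only 1.05-fold higher in COR than in SAG.

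**Figure D1:**
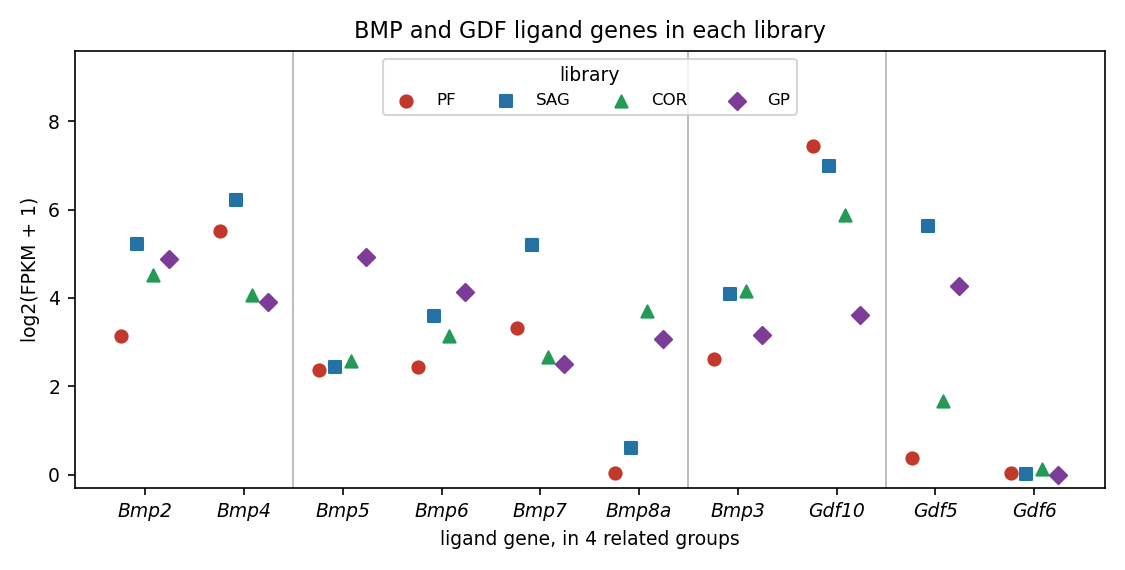
Level of each ligand gene, log2(FPKM + 1), in the PF, SAG, COR, and GP libraries, 1 point per library, with vertical lines between the related groups. *Gdf10* runs from 173 FPKM in PF down to 11.3 in GP, *Gdf5* from 48.2 FPKM in SAG down to 0.290 in PF, and *Gdf6* is near 0 throughout.

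**Figure D2:**
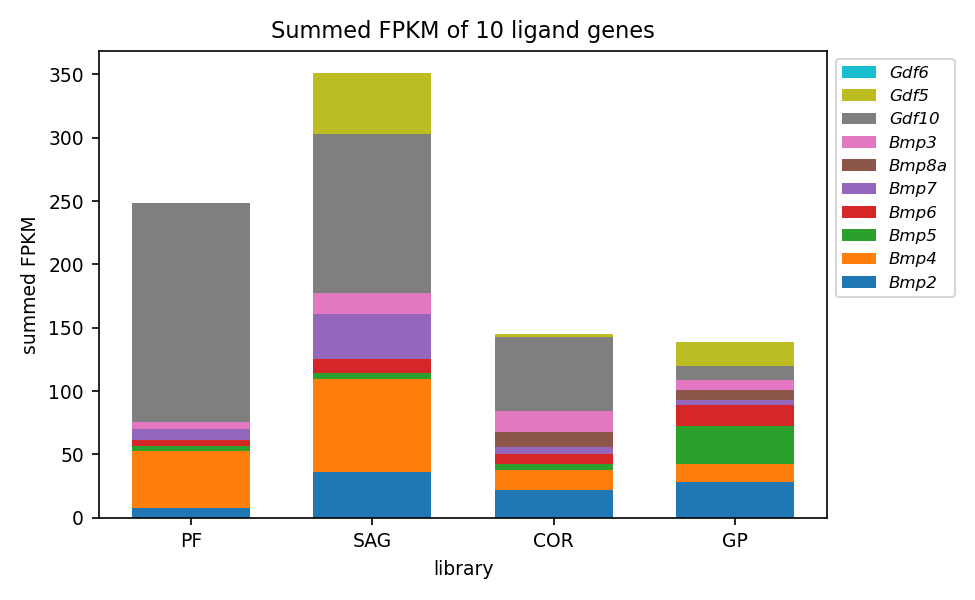
Summed FPKM of the 10 ligand genes (vertical axis) in each library (horizontal axis), with a colour per gene. The bar of PF, 248.8 FPKM, is mostly *Gdf10*, and that of GP, 138.4 FPKM, is spread over *Bmp5*, *Bmp2*, *Gdf5*, and *Bmp6*.

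The range over the 4 libraries was taken as the highest over the lowest of FPKM + 1, and 3-fold or more was counted, without a test, for genes that reached 1 FPKM in at least 1 library. Of the 10 ligand genes, 9 passed the filter and 8 had a range of at least 3-fold; *Bmp3* did not on this scale, and *Gdf6* did not pass the filter. Over all genes the share was 24.7%, and 24.8% once the minimum was set at 5 FPKM, where the same count of 8 of 9 ligand genes was found. The median range was 2.57 on the log2 scale for the ligand genes and 1.01 for all genes compared. Without the SAG library, 7 of 9 ligand genes passed and 16.7% of all genes did. Without PF the count was 6 of 9, without COR 8 of 9, and without GP 5 of 9, beside 13.0%, 21.1%, and 21.8% of all genes.

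*Bmp2* and *Bmp4* encode close paralogs that drive bone and cartilage formation. *Bmp2* (mm9 chromosome 2, 133377895 to 133388621, with the other positions below in the same build) was at 36.1 FPKM in SAG, 28.7 in GP, 22.0 in COR, and 7.79 in PF. PF stood below the other libraries, by 2.82-fold from the nearest, COR. *Bmp4* (chromosome 14, 47003195 to 47010344) had another order, with 73.5 FPKM in SAG, 45.0 in PF, 15.7 in COR, and 14.1 in GP. It was high in PF and SAG and low in COR and GP, whose values differed by 1.11-fold. *Bmp4* was thus the second most abundant ligand gene in PF and SAG, and *Bmp2* the second in COR and GP.

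The group of *Bmp5*, *Bmp6*, *Bmp7*, and *Bmp8a* summed to 58.0 FPKM in GP, 51.6 in SAG, 30.1 in COR, and 17.6 in PF, which was 41.9% of all ligand FPKM in GP and 7.05% in PF. Each member had its own order. *Bmp5* (chromosome 9, 75623171 to 75748117), known in mice for the shape of ear cartilage and the skeleton, was at 29.4 FPKM in GP, 4.95 in COR, 4.43 in SAG, and 4.13 in PF. It lay within 1.20-fold among the sutures and 5.94-fold higher in GP than in COR. *Bmp6* (chromosome 13, 38436995 to 38592183), expressed in maturing chondrocytes, was at 16.5 FPKM in GP, 11.1 in SAG, 7.83 in COR, and 4.41 in PF. Its differences were smaller, from 1.42-fold between SAG and COR to 3.74-fold between GP and PF. *Bmp7* (chromosome 2, 172693513 to 172765822), an osteogenic ligand, was at 35.6 FPKM in SAG, 8.98 in PF, 5.34 in COR, and 4.63 in GP. SAG stood 3.96-fold above PF, the next library. *Bmp8a* (chromosome 4, 122989888 to 123020495) was at 12.0 FPKM in COR, 7.45 in GP, 0.517 in SAG, and 0.0271 in PF. The PF value rested on about 1 fragment and the SAG value on about 49, compared with about 999 in COR and 591 in GP, so no fold or ratio against PF is given for *Bmp8a*. In the counts for PF below it is included by FPKM + 1, where its PF value is almost only the pseudocount.

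Counting is not stated to use strand, so reads of genes that overlap on opposite strands cannot be told apart. *Bmp6* shares 236 exon bases, 6.58% of its own, with *Txndc5*, which lies on the opposite strand and was at 537.7 FPKM in PF, 503.2 in COR, 342.5 in GP, and 168.4 in SAG. *Txndc5* was highest in PF, where *Bmp6* was lowest, and the part of *Txndc5* reads in the *Bmp6* values was not tested. *Bmp5*, *Gdf5*, and *Bmp4* share 46.7%, 40.3%, and 4.0% of their exon bases with antisense genes of the GENCODE annotation. *Bmp8b*, the paralog of *Bmp8a*, is listed at 0 in all 4 libraries; 8.91% of the 50-base windows of the *Bmp8a* transcript are also in that of *Bmp8b*, so the split of reads between these genes is uncertain.

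*Bmp3* and *Gdf10*, also called *Bmp3b*, encode the group in which BMP3 is known to limit bone formation. *Gdf10* (chromosome 14, 34736773 to 34749700) was the most abundant ligand gene in each suture, with 173.1 FPKM in PF, 125.6 and 58.3 in the SAG and COR sutures, and 11.3 in GP. The libraries followed the order PF, SAG, COR, and GP, with steps of 1.38-fold, 2.16-fold, and 5.16-fold. In PF it ranked 603rd among all genes, and in GP 5697th. *Bmp3* (chromosome 5, 99283458 to 99309979) was at 16.9 FPKM in COR, 16.1 in SAG, 7.95 in GP, and 5.14 in PF. SAG and COR were high and within 1.05-fold of each other, and PF, where its relative was highest, was the lowest.

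*Gdf5* and *Gdf6* are known for joint and cartilage formation. *Gdf5* (chromosome 2, 155766759 to 155771103) was at 48.2 FPKM in SAG, 18.4 in GP, 2.17 in COR, and 0.290 in PF. This was the widest range of the 10 ligand genes, 5.25 on the log2(FPKM + 1) scale, with SAG 22.2-fold above COR and 2.62-fold above GP. The PF value rested on about 12 fragments, and SAG on about 4398. *Gdf6* (chromosome 4, 9771519 to 9789492) was near or at 0, at 0.095 FPKM in COR, 0.0176 in PF, and 0.00734 in SAG, and is listed at 0 in GP. These values correspond to about 12, 1, and 1 fragments, and no fold is given.

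The sequence just before the start of transcription is shown for the ligand genes whose levels set the tissues apart and that are held in the RefSeq promoter table: *Gdf10* and *Bmp4*, both higher in PF and SAG than in COR and GP, *Bmp8a*, higher in COR and GP, and *Bmp5*, higher in GP. *Bmp6* is also in the table, and *Bmp2*, *Bmp3*, *Bmp7*, *Gdf5*, and *Gdf6* are not. Each run is 250 bases before the RefSeq start, 5′ to 3′ on the strand of the gene, and was found as an exact match in mm9. Capitals mark a GC box (GGGCGG or CCGCCC) or an E-box (CACGTG), and adjoining or overlapping matches run together.
Gdf10, chr14:34736523-34736772, plus strand: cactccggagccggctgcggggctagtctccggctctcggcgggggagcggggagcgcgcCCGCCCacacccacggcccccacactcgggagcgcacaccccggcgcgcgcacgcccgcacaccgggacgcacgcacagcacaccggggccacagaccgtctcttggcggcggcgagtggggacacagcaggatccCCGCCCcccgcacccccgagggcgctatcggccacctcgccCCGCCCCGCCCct
Bmp4, chr14:47010345-47010594, minus strand: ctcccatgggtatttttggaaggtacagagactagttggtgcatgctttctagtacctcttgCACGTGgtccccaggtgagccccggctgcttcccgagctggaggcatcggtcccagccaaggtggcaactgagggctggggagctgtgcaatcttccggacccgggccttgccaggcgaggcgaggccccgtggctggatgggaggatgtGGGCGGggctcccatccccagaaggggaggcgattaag
Bmp8a, chr4:123020496-123020745, minus strand: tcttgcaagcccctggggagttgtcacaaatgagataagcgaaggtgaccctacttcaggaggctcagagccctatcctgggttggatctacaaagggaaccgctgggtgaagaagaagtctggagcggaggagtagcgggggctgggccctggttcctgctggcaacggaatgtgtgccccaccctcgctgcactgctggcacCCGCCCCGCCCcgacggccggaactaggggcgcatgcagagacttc
Bmp5, chr9:75622922-75623171, plus strand: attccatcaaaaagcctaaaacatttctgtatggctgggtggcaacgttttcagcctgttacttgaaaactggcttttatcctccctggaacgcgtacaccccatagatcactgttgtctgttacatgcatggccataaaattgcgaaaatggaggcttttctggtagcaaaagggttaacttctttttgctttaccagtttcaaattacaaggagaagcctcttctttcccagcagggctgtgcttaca

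The windows differed in base composition. That of *Gdf10* was 78.8% G and C with 4 GC boxes, that of *Bmp4* 63.2% with 1 GC box and 1 E-box, that of *Bmp8a* 62.0% with 2 overlapping GC boxes, and that of *Bmp5* 42.8% with none. A GC box is held by 33.0% of all 32536 distinct windows of this length and by a window of 4 of the 5 ligand genes. The E-box is held by 6.04% of all windows and by a window of 2 of the 5 genes. A ligand gene was counted if any of its windows held the motif, so these counts and the shares of windows have unlike units. No window of the 5 genes holds the homeobox core TAATTG, the RUNX core TGTGGT, or the GC-rich SMAD element GGCGCC on either strand. The TATA box TATAAA and the SOX core ACAATG are absent as well. In the order named, these are in 7.18%, 14.0%, 9.65%, 12.3%, and 10.5% of all windows. The motifs were chosen after the expression values were known, the GC box and E-box once the other 5 had given no match, and a match is only a description of the letters.

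Between PF and SAG, 3 of the 8 ligand genes compared were at least 3-fold lower in PF, *Bmp2*, *Bmp7*, and *Gdf5*, and 0 were higher. Of all 13490 genes compared, 9.04% were lower in PF by this measure and 6.64% higher. The log2 ratio of FPKM + 1 for PF vs SAG was -2.08 for *Bmp2*, -1.87 for *Bmp7*, and -5.25 for *Gdf5*, and that of *Bmp7* was -1.38 relative to *Gapdh*, short of 3-fold. *Bmp3*, at -1.48, lay just short of the threshold of 1.58. *Gdf10* was the only ligand gene compared that was higher in PF, at 0.46. The median over the 8 genes was -1.32, and that over all genes compared was 0.03.

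The next pair was PF, which fuses after the day of sampling, and COR, which stays patent. Here 1 of 9 ligand genes was at least 3-fold lower in PF and 0 were higher. Over all 12853 genes, 4.87% were lower in PF and 6.81% higher. The ligand gene was *Bmp8a*, whose PF value rested on about 1 fragment. Several genes lay close to the threshold: *Gdf10* at 1.55 and *Bmp4* at 1.46 were higher in PF, and *Bmp3* at -1.54 and *Bmp2* at -1.39 were lower. *Gdf5*, at -1.30, had low values in both libraries. The median was -0.71 over the 9 ligand genes and 0.05 over all genes, and the median of the ligand genes was -0.21 among those at 1 FPKM or more in both libraries.

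Between COR and SAG, the sutures that stay patent, *Bmp4*, *Bmp7*, and *Gdf5* were at least 3-fold lower in COR and *Bmp8a* was higher. These are 3 and 1 of 9 ligand genes. Over all 12720 genes compared, 6.15% were lower in COR and 3.11% higher. The log2 ratio for COR vs SAG was -2.16 for *Bmp4*, -2.53 for *Bmp7*, -3.96 for *Gdf5*, and 3.10 for *Bmp8a*. *Bmp3* and *Bmp5* were close, at 0.06 and 0.13. These comparisons share libraries and are not independent of each other.

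Against the growth plate, *Gdf10* was the ligand gene at least 3-fold higher in each suture, with log2 ratios of 3.82 in PF, 3.37 in SAG, and 2.27 in COR, and *Bmp5* was at least 3-fold lower in each, at -2.57, -2.48, and -2.35. For PF vs GP, 2 of 9 ligand genes were at least 3-fold higher, *Gdf10* and *Bmp4*, and 5 were lower, *Bmp2*, *Bmp5*, *Bmp6*, *Bmp8a*, and *Gdf5*. Over all genes 5.72% were higher and 6.24% lower in PF. The ratio of *Bmp4*, 1.60, was at the threshold, and it was 1.56 after median-ratio scaling, 1.53 after quantile normalization, and 1.45 after a correction for GC content. Relative to *Gapdh*, *Bmp2* and *Bmp6* were short of 3-fold, at -1.32 in place of -1.75 and -1.29 in place of -1.69. For SAG vs GP, *Bmp4*, *Bmp7*, and *Gdf10* were higher and *Bmp5* and *Bmp8a* lower, compared with 4.8% and 3.86% of all genes. For COR vs GP, only *Gdf10* was higher and *Bmp5* and *Gdf5* were lower, compared with 1.2% and 3.2% of all genes. The median over the 9 ligand genes was -1.69 for PF vs GP, 0.93 for SAG vs GP, and 0.14 for COR vs GP, with 0.03, 0.03, and 0.02 over all genes compared. For PF vs GP the median was -0.54 among ligand genes at 1 FPKM or more in both libraries, which leaves out *Bmp8a* and *Gdf5*, and -1.12 over all 10.

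**Figure D3:**
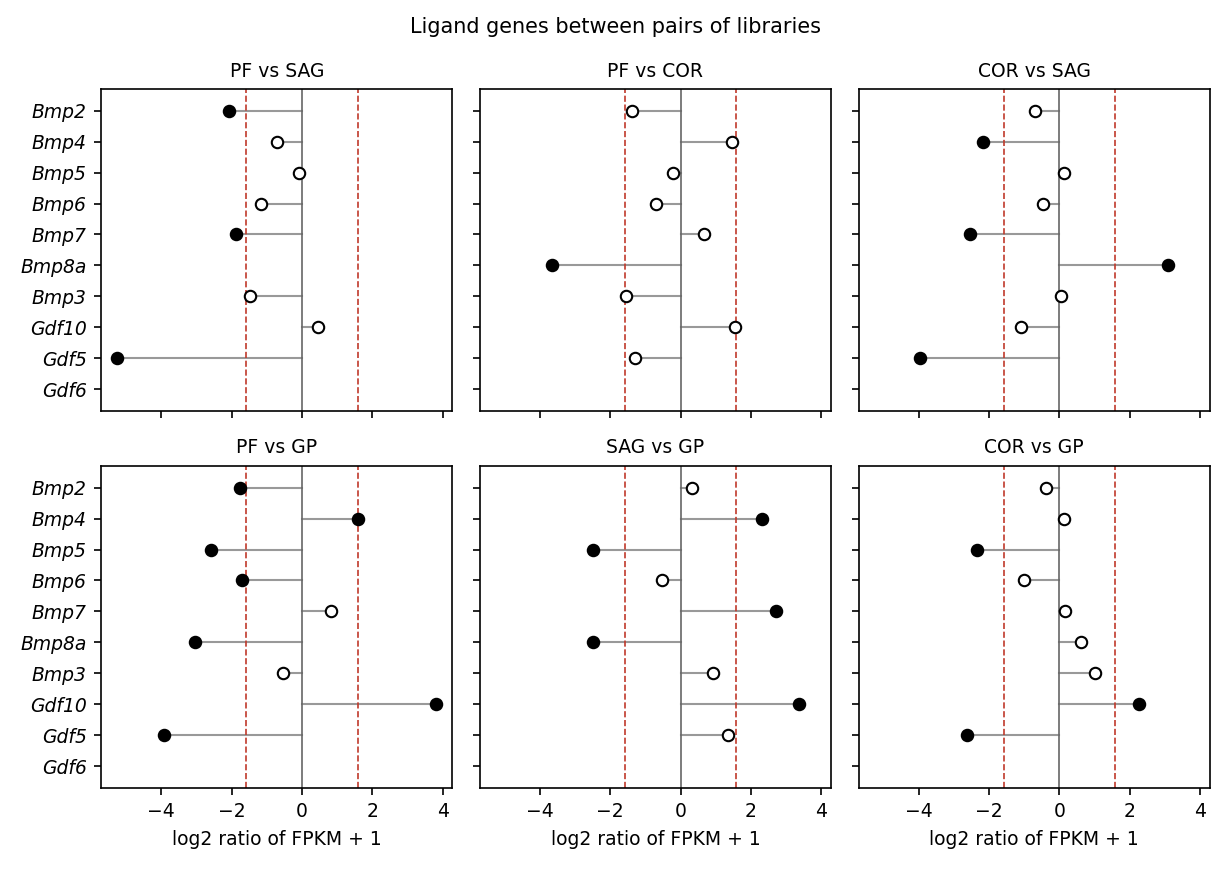
Log2 ratio of FPKM + 1 (horizontal axis) for each ligand gene (vertical axis) in the 6 pairs of libraries, positive where the first library is higher. Dashed lines mark 3-fold and filled points lie past them; PF vs GP has 7 filled points and PF vs COR 1, and genes under 1 FPKM in both libraries have no point.

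For 5 ligand genes, the summed markers of a cell type were highest in the same library as the ligand. The part of such cells in the ligand levels was not tested. The lists set beside the ligands were chosen with these values known. The 12 chondrocyte markers, all of them at 1 FPKM or more in each library, summed to 7075 FPKM in SAG, 3954 in GP, 236.1 in PF, and 216.2 in COR, so the libraries with high *Gdf5* had high chondrocyte markers, 8 of which were highest in SAG and 4 in GP. The 10 osteoblast markers summed to 12480 FPKM in COR, 8285 in GP, 2969 in PF, and 902.0 in SAG. All 10 were highest in COR, as *Bmp8a* was. *Spp1* alone was 8324 FPKM in COR, 6882 in GP, 1649 in PF, and 617.3 in SAG. *Alpl*, *Bglap*, *Bglap2*, and *Ifitm5* were higher in PF than in GP, the reverse of *Bmp8a*. *Ibsp*, *Sp7*, *Dmp1*, *Phex*, *Mepe*, and *Spp1* were lower in PF than in GP. PF had more osteoblast marker FPKM than SAG but less *Bmp8a*. *Bmp7* was highest in SAG, where 8 of 10 choroid plexus markers were highest and their sum was 5361 FPKM, against 509.7 FPKM for PF, 200.9 for COR, and 56.8 for GP; *Tmem72* is at 0 in GP. The 5 markers of tendon and joint lining were all highest in GP, as *Bmp5* was. Their sums were 1731 FPKM in GP, 486.1 in PF, 199.8 in COR, and 181.1 in SAG. PF had more of this marker FPKM than COR or SAG but less *Bmp5*. Most of the PF sum was *Tnmd*, at 400.8 FPKM. Only *Tnmd* and *Mkx* were higher in PF than in COR and SAG alike. *Scx* was lower in PF than in COR, *Prg4* lower than in SAG, and *Thbs4* was lowest in PF. The summed level of the 10 meningeal markers had the order of *Gdf10*, with 334.2 FPKM for PF, 227.1 for SAG, 85.3 for COR, and 37.4 for GP, but the single markers did not all follow it: 6 were highest in PF and 4, with *Ptgds* at 91.3 FPKM, in SAG. *Slc22a6* is listed at 0 in all 4 libraries and *Slc6a13* was at 0.226 FPKM at most, while *Foxd1* was at 135.3 FPKM and *Foxc1* at 62.4 FPKM in PF.

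**Figure D4:**
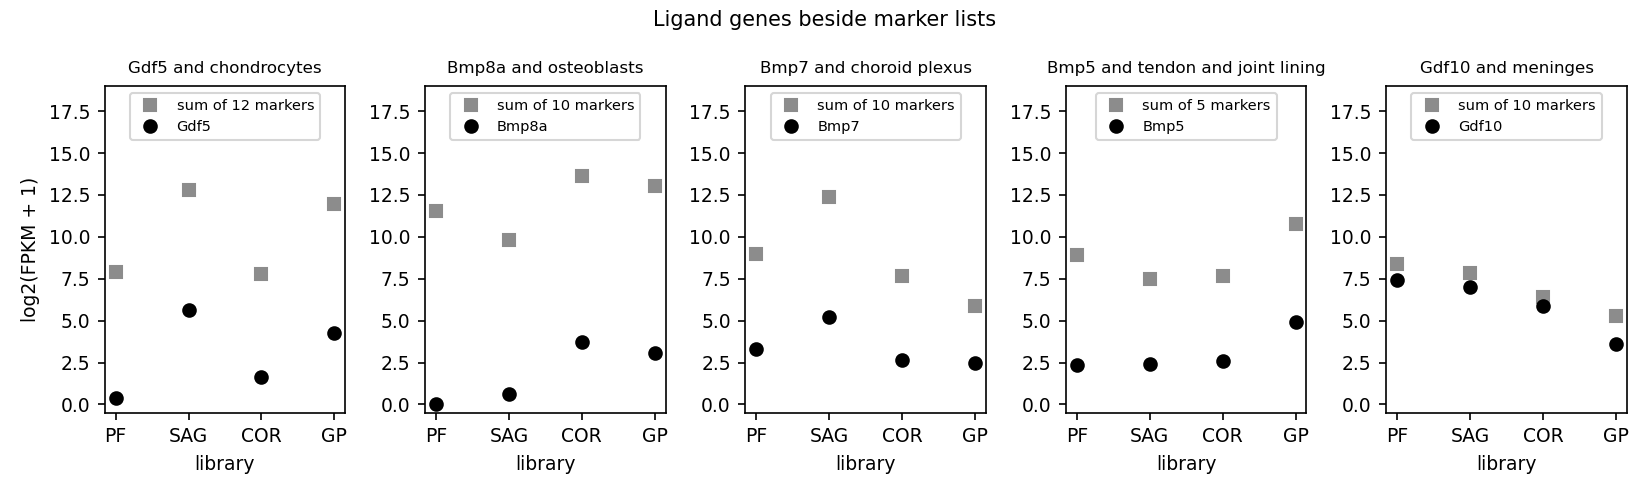
Log2(FPKM + 1) of a ligand gene (black circles) and of the summed markers of a cell type (grey squares) in each library, in 5 panels. *Gdf5* and the chondrocyte markers are both high in SAG and GP, *Bmp8a* and the osteoblast markers both highest in COR, and *Gdf10* and the summed meningeal markers share the order PF, SAG, COR, and GP.

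Markers of endothelial and blood cells, which the sort gated out, were low. The 5 endothelial markers summed to 16.9 FPKM in SAG, 4.30 in PF, 1.18 in COR, and 1.10 in GP. The 5 blood cell markers summed to 34.5 FPKM in PF, 10.8 in SAG, 8.38 in GP, and 5.75 in COR. In PF, *Lyz2* was at 30.2 FPKM and *Ptprc* at 0.568. Skeletal muscle markers summed to 1.61 FPKM at most, with *Myod1* at 0 in all libraries. The 4 markers of pericytes and smooth muscle summed to 553.8 FPKM in PF, 431.5 in GP, 255.1 in COR, and 49.6 in SAG. Of these sums, *Acta2* alone was 530.4 in PF, 400.2 in GP, 231.5 in COR, and 38.9 in SAG. *Kcnj8* was also highest in PF, at 7.06 FPKM. *Rgs5* was highest in GP, at 10.8 FPKM, and *Cspg4* in COR, at 19.7, with its lowest value, 8.81, in PF. The 7 markers of neurons and glia summed to 20.1 FPKM in SAG and 99.5 in GP, of which *Mbp* alone was 12.2 and 83.0. By number SAG had more of them: 6 reached 1 FPKM there and 3 in each other library, and 4 were highest in SAG. The 4 hypertrophic chondrocyte markers summed to 1353 FPKM in GP, 454.9 in COR, 351.9 in SAG, and 47.6 in PF. Among them, *Col10a1* was at 600.5 FPKM in GP but only 1.44 in PF, 1.08 in COR, and 0.814 in SAG. The sums of the sutures were mostly *Mmp13*, at 346.2 FPKM in SAG, 297.6 in COR, and 28.9 in PF. *Panx3* added 149.7 FPKM in COR. The 5 osteoclast markers summed to between 536.2 and 757.6 FPKM. Of these, *Ctsk* was at 228.6 to 576.0 FPKM, while *Oscar* and *Calcr* were at 0.1585 and 0.1421 FPKM at most.

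Among 12 further BMP and GDF ligand genes, 5 reached 1 FPKM in any library. Of these, 3 had a range of at least 3-fold, *Gdf15*, *Bmp15*, and *Mstn*, beside 24.7% of all genes. Here and for the lists below, the shares of all genes for each pair of libraries are those given above. *Gdf15*, a stress-induced factor that signals through its own receptor, was at 35.6 FPKM in SAG, 4.11 in GP, 3.67 in COR, and 0.0695 in PF. For PF vs SAG, 1 of 4 was lower in PF and 0 were higher, and for PF vs GP 3 of 5 were lower. *Bmp15* and *Mstn* reached 2.71 and 2.30 FPKM in GP. *Bmp10*, *Gdf3*, and *Nodal* are listed at 0 throughout, as *Bmp8b* is.

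All 11 receptor and co-receptor genes reached 1 FPKM in a library, and 3 had a range of at least 3-fold, beside 24.7% of all genes. *Bmpr1a* and *Acvr1*, type I receptors for many of these ligands, were at 15.7 to 24.6 and 9.95 to 21.1 FPKM, and *Bmpr2*, a type II receptor, at 1.99 to 3.59. These stayed within 3-fold in each pair of libraries. *Acvrl1*, a type I receptor best known in vessels, was at 14.8 FPKM in PF, 4.30 in COR, 3.64 in GP, and 1.98 in SAG. *Hfe2*, the gene of the co-receptor hemojuvelin, was at 5.88 FPKM in SAG and below 1 in the others. *Bmpr1b*, the preferred type I receptor of GDF5, reached 1 FPKM in GP only, at 2.49, with 0.0433 in PF, 0.895 in SAG, and 0.535 in COR. For PF vs SAG, 1 of 10 receptor genes was higher in PF, *Acvrl1*, and 1 lower, *Hfe2*, and for PF vs GP *Acvrl1* was higher and *Bmpr1b* lower. COR vs SAG had 0 higher and 1 lower, SAG vs GP 1 higher and 0 lower, each of 9, and PF vs COR and COR vs GP had 0 of 9 in either direction.

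Of the 16 antagonist genes, 13 were compared and 7 had a range of at least 3-fold, beside 24.7% of all genes. For PF vs SAG, 3 of 11 were higher in PF, *Chrd*, *Fst*, and *Fstl3*, and 0 were lower, while PF vs COR had 0 of 12 in either direction and COR vs SAG 1 higher and 2 lower. Against GP, the sutures had 2 of 13 lower in PF, 4 in SAG, and 3 in COR, and only 1 higher, *Chrdl1* in SAG. *Fst*, the gene of follistatin, was at 20.1 FPKM in GP, 7.21 in PF, 2.21 in COR, and 0.724 in SAG. *Chrd*, the gene of chordin, was at 12.1 FPKM in PF, 11.8 in GP, 3.77 in COR, and 2.61 in SAG. *Fstl3*, a follistatin relative, was at 34.9 FPKM in PF, 31.4 in COR, 18.4 in GP, and 4.46 in SAG. *Grem1*, the gene of gremlin, was at 15.3 FPKM in GP and at 0.482 or less in the sutures. *Sostdc1* was highest in GP at 101.5 FPKM, compared with 27.6 in PF, 36.0 in SAG, and 12.3 in COR. *Chrdl1*, like *Bmp4*, was high in PF and SAG, at 15.0 and 28.4 FPKM, and at 5.38 in COR and 5.24 in GP. *Bmper* ran from 15.6 FPKM in SAG to 4.43 in COR. *Nog*, the gene of noggin, stayed within 3-fold on the FPKM + 1 scale, with 19.7 FPKM in GP, 14.6 in both SAG and COR, and 6.53 in PF.

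Of the 6 protease genes compared, 3 had a range of at least 3-fold, beside 24.7% of all genes. *Pcsk5*, a proprotein convertase, was at 42.6 FPKM in PF, 15.8 in COR, 12.2 in GP, and 7.41 in SAG. *Pcsk6*, its relative, was at 45.6 FPKM in COR, 26.4 in GP, 15.4 in PF, and 11.2 in SAG. *Tll1*, a tolloid protease that cuts chordin, was at 8.06 FPKM in PF, 3.48 in GP, 2.10 in SAG, and 0.717 in COR. PF vs SAG and PF vs GP each had 1 of 6 higher in PF, *Pcsk5*, PF vs COR had *Tll1* higher in PF, and COR vs SAG *Pcsk6* higher in COR, with 0 lower in any pair. *Furin*, the best known convertase, was at 15.0 to 30.1 FPKM. Of the BMP-responsive SMAD genes, 3 were compared and 0 passed 3-fold in any pair, with *Smad1* at 25.4 to 36.4 FPKM.

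Among the 12 target and feedback genes, 6 had a range of at least 3-fold, beside 24.7% of all genes. *Id1*, the best known direct target, was at 320.0 FPKM in SAG, 114.7 in COR, 99.1 in GP, and 94.5 in PF. *Id4* was at 256.5 FPKM in SAG, 12.7 in COR, 10.8 in GP, and 9.92 in PF. The 4 *Id* genes were each highest in SAG, though *Id2* and *Id3* stayed within 3-fold. A link between *Id* and ligand levels was not tested. *Msx1*, a homeobox gene of suture mesenchyme, was at 257.8 FPKM for PF, 175.1 for SAG, 94.4 for COR, and 15.9 for GP. *Msx2*, its paralog, was at 54.4 FPKM in SAG, 43.2 in PF, 22.1 in COR, and 2.13 in GP, so that both were at least 3-fold higher in each suture than in GP. *Dlx5* was at 102.5 FPKM in COR, 82.3 in GP, 22.6 in PF, and 20.9 in SAG. *Runx2* ran from 9.41 FPKM in SAG to 30.4 in COR. For PF vs SAG, 0 of the 12 were higher and 2 were lower in PF, *Id1* and *Id4*, and for PF vs COR only *Dlx5* was lower. For SAG vs GP, 4 of 12 were higher and 1 lower, for PF vs GP 2 and 1, for COR vs GP 2 and 0, and for COR vs SAG 2 and 1.

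**Figure D5:**
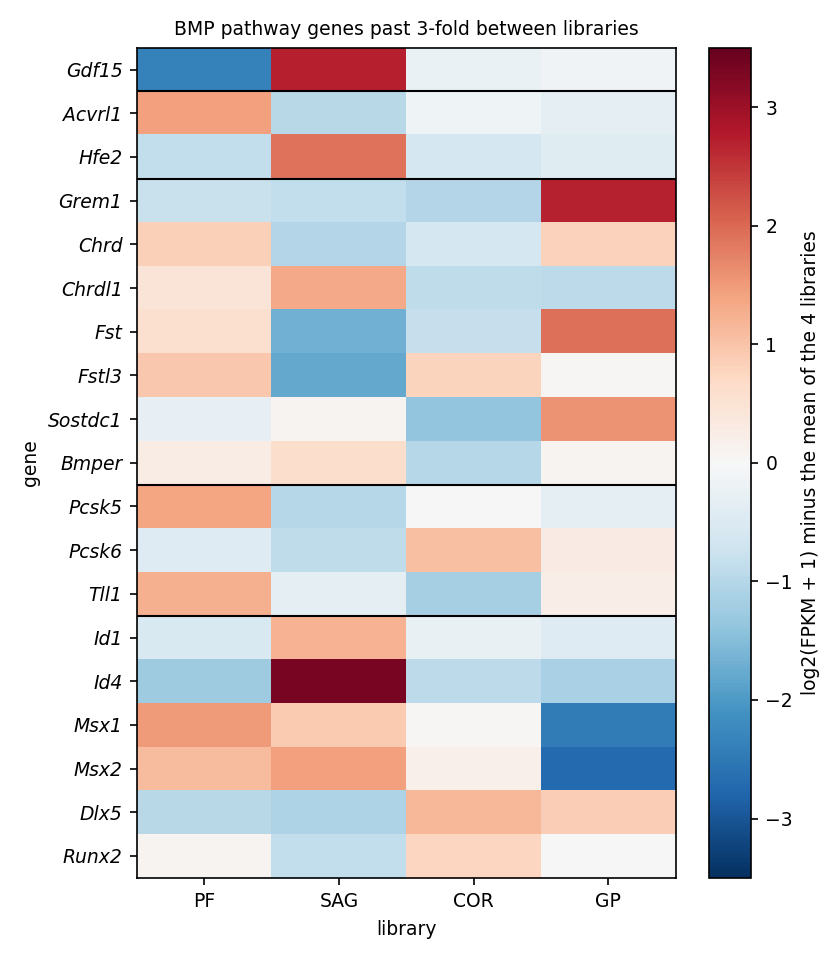
Log2(FPKM + 1) minus the mean of the 4 libraries (colour) for 19 other BMP pathway genes (vertical axis) with a range past 3-fold and 5 FPKM or more in a library (horizontal axis). Black lines part ligands, receptors, antagonists, proteases, and targets; *Id4* is highest in SAG, *Grem1* in GP, and *Msx1* and *Msx2* are lowest in GP.

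For the 3 ligand genes with the widest range, the genes nearest in pattern were sought among the 9802 genes that reached 5 FPKM, by Euclidean distance of mean-centred log2(FPKM + 1) over the 4 libraries. With 4 libraries such likeness is only a description. Nearest to *Gdf10* was *Msx1*, at a distance of 0.18, then *Slc4a10* at 0.41 and *Tmeff2* at 0.54. Nearest to *Gdf5* were *2610018G03Rik* at 0.14, *Spint2* at 0.23, and *Mmp9* at 0.49, and nearest to *Bmp8a* were *Postn* at 0.38, *Qpct* at 0.52, and *Tnfaip2* at 0.63. Among the ligand genes themselves, apart from *Gdf6*, the closest pairs were *Bmp2* with *Bmp6* at 0.79 and *Bmp4* with *Bmp7* at 0.86, both of which cross the related groups.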

How the data were processed

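Reads were mapped to mouse mm9 with STAR 2.5.1b, and the authors deposited FPKM per gene symbol from Cuffdiff of Cufflinks 2.2.1 with the Illumina iGenomes gene model, 1 library per tissue from amplified cDNA; Cuffdiff's library scaling is not given in the sources used here. Log2 ratios of FPKM with a pseudocount of 1 were computed, which understates differences of low genes, for genes reaching 1 FPKM in either library; 3-fold or more was counted and no test was made. The members and lists were chosen with earlier results of these data known. All 10 ligand genes are named; of the other pathway genes, those with a range of at least 3-fold and FPKM of 5 or more in any library, plus a few within 3-fold or at low levels, chosen after their values were seen. Fragment steps used genes with 1 coding transcript over 1500 bases. Gene positions, lengths, and GC content came from GENCODE for mm9, which held 80.8% of symbols and all 10 members. Promoters were RefSeq's (GRCm38.p6), located in mm9 by exact match; amino acid sequences were not used here. Alternatives were a pseudocount of 0.1, median-ratio, quantile, and *Gapdh* scaling, other filters, and a loess GC correction (span 0.3). Python 3.11.15, numpy 2.4.6, pandas 2.3.3, statsmodels 0.14.6, and matplotlib 3.10.9 were used. The calls were checked on simulated data with planted changes well past 3-fold. That check does not bear on ratios near the threshold, on low values, or on the spread between replicates.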

Additional observations from a re-analysis of the deposited data

How the results depend on the processing

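No paired analysis was possible because there is only 1 library for each tissue. The counts of ligand genes at least 3-fold apart stayed within 1.5 times of the reported count in every alternative run for PF vs SAG, COR vs SAG, PF vs GP, SAG vs GP, and COR vs GP. For PF vs COR the count was 1, and it was 3 with a pseudocount of 0.1 (*Bmp3* and *Gdf5* added, both lower in PF), 3 relative to *Gapdh* (*Bmp4* and *Gdf10* added, both higher in PF), and 0 where both libraries had to reach 1 FPKM, which leaves *Bmp8a* out. Single genes crossed the threshold within these limits. Relative to *Gapdh*, *Bmp7* in PF vs SAG (-1.38) and *Bmp2* (-1.32) and *Bmp6* (-1.29) in PF vs GP were no longer 3-fold apart. *Bmp4* in PF vs GP was not after median-ratio scaling, quantile normalization, or the GC correction. In the other direction, *Bmp3* in PF vs SAG came past 3-fold with a pseudocount of 0.1 (-1.63). *Bmp6* in PF vs SAG did so after the GC correction (-1.59). The median ratio of the ligand genes kept its sign in every alternative but moved, from -0.85 to -1.58 for PF vs SAG, -0.21 to -0.95 for PF vs COR, -0.42 to -0.89 for COR vs SAG, -0.54 to -1.90 for PF vs GP, 0.63 to 1.14 for SAG vs GP, and 0.09 to 0.34 for COR vs GP. Relative to *Gapdh*, the median PF vs SAG ratio of all genes became 0.51, and after median-ratio scaling -0.08, from 0.03. Leaving out GP, an alternative added after seeing the data, gave 5 ligand genes with a range of at least 3-fold in place of 8. No ratio past 3-fold changed direction. After median-ratio scaling 2 libraries changed places for *Bmp3*, and after quantile normalization 2 did for *Bmp5*. The PF library was the shallowest, which limits *Bmp8a*, *Gdf5*, and *Gdf6* there.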
